A study of Mus musculus with 20 samples.

Results

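The uptake, storage, and export of iron were followed through 10 genes in wild-type (WT) and Nsun6-KO mice. The members are the rows of the count table whose symbol was Slc11a2, Cybrd1, Tfrc, Trf, Slc11a1, Fth1, Ftl1, Slc40a1, Hamp, or Hamp2, which makes 10 of 55401 genes, and each symbol matched 1 row. RNA-seq of 5 organs (heart, kidney, liver, small intestine, and spleen) gave 20 libraries, 2 for each organ and genotype, with 15897446 to 44508197 counted reads per library (median 28513950). WT and KO mice were 8-week-old females, and the KO mice, made in C57BL/6J fertilized eggs, lacked exons 3 and 4 of Nsun6, which encodes a methyltransferase that places 5-methylcytosine on RNA. The deletion was not limited to a cell type or organ. The libraries of a group are described as biological replicates in the study's text, but the labels name no animals, so p-values measure the spread between these libraries. Nsun6 was read at a median of 3.26 TPM (a level scaled by gene length and library depth, with the same sum in each library) in WT libraries and 2.43 TPM in KO libraries, and because reads of the remaining exons count towards the gene, its level does not check the genotype.

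The organ labels were compared with defining markers. Summed levels of the marker list were 219230 to 311380 TPM for 16 hepatocyte genes in the 4 liver libraries. They were 91174 to 142998 TPM for 10 kidney tubule genes (proximal tubule genes and Umod) in the kidney, and 65155 to 74880 TPM for 10 cardiomyocyte genes in the heart. They were 21083 to 39253 TPM for 10 enterocyte genes in the small intestine, and 815 to 1394 TPM for 10 red pulp macrophage genes in the spleen. Hmox1 alone made 282 to 727 TPM of the spleen sums. The small intestine and 1 spleen library stood apart. The replicate 1 libraries of the small intestine carried ileal transcripts and the replicate 2 libraries carried duodenal transcripts, in both genotypes. WT replicate 2 of the spleen held hepatocyte transcripts at a summed 7994 TPM, with all 16 genes at 1 TPM or more and Alb highest at 4498 TPM, against 27.4, 270, and 386 TPM in WT replicate 1, KO replicate 1, and KO replicate 2. Members' spleen results are given below with and without that library, and the intestinal replicates are given separately.

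As background, dietary iron is reduced at the brush border of the duodenum by CYBRD1, carried into the enterocyte by SLC11A2 (DMT1), and passed to the blood by ferroportin, SLC40A1, the known cellular iron exporter. Transferrin (TRF) then carries it to cells that display the transferrin receptor TFRC, ferritin shells of FTH1 and FTL1 subunits store it, and macrophages of the spleen and liver recycle it from aged red cells with the help of SLC11A1. The liver hormone hepcidin, product of Hamp, binds ferroportin and causes its loss from the cell surface, and Hamp2 is a mouse duplicate of Hamp.

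Several of these transcripts carry an iron-responsive element, a hairpin bound by iron regulatory proteins when iron is low. Bound in a 5′ UTR it blocks translation, and bound in a 3′ UTR it protects the transcript. A search of GENCODE M21 transcripts (GRCm38) for a loop CAGTGN between stem arms of 5 bases each (Watson-Crick or G-U pairs), with a C directly before the first arm, on the transcript strand, found it in the 5′ UTR of Fth1, Ftl1, and Slc40a1 and 4 times in the 3′ UTR of Tfrc, while Slc11a2 held a 3′ site with 4 of 5 pairs. Such a site with 5 pairs occurred in the 5′ UTR of 28 of 20749 genes (0.135%) and in the 3′ UTR of 128 of 21081 genes (0.607%), and with at least 4 pairs in the 3′ UTR of 4.1%. A match describes these letters and is not evidence of binding. The sites are shown because they divide the members into those with the hairpin before and those with it after the coding region, with the loop in capitals.
Fth1 5′ UTR, chr19:9982732-9982760, plus strand: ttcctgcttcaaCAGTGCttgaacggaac
Ftl1 5′ UTR, chr7:45459779-45459807, minus strand: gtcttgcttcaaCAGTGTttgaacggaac
Slc40a1 5′ UTR, chr1:45925465-45925493, minus strand: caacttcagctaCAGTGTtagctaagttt
Slc11a2 3′ UTR, chr15:100395153-100395181, minus strand: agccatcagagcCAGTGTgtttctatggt
Tfrc 3′ UTR, chr16:32631219-32631247, plus strand: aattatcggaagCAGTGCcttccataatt
Tfrc 3′ UTR, chr16:32631598-32631626, plus strand: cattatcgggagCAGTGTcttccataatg
Tfrc 3′ UTR, chr16:32631663-32631691, plus strand: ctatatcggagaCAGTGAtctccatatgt
Tfrc 3′ UTR, chr16:32631710-32631738, plus strand: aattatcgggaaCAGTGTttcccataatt

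Genes of intestinal iron absorption had their highest mean level in the small intestine, and there they divided by replicate number and not by genotype. Slc11a2, the importer, stood at 20.3 and 362 TPM in WT replicates 1 and 2 and at 23.9 and 271 TPM in KO replicates 1 and 2. Cybrd1, the reductase, stood at 1.66 and 92.6 TPM in WT and at 2.95 and 28.9 TPM in KO. Slc40a1, the exporter, stood at 41.9 and 566 TPM in WT and at 18.9 and 375 TPM in KO. For these genes both replicate 2 libraries lay above both replicate 1 libraries, and the genotypes overlapped. Within each replicate number Slc40a1 was lower in KO, whereas Slc11a2 and Cybrd1 were higher in KO for replicate 1 and lower for replicate 2. Storage genes were also higher in replicate 2, with Fth1 at 718 and 6939 TPM in WT and 1042 and 7464 TPM in KO, and Ftl1 at 293 and 618 TPM in WT and 326 and 706 TPM in KO, both higher in KO within each replicate number. In bulk tissue fewer cells of a type and less RNA per cell cannot be told apart.

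In a fit of the 4 intestinal libraries with genotype as a term, 5 of the 8 members tested were called for replicate 2 against replicate 1, each higher in replicate 2 (a change of more than 2-fold at an adjusted p below 0.1, from the quasi-likelihood test of edgeR, Benjamini-Hochberg over 17680 genes), where 7.64% of all genes tested were called in either direction and 4.52% as higher. The log2 fold changes were 4.39 ± 0.32 (SE) for Slc40a1, 4.89 ± 0.78 for Cybrd1, 4.18 ± 0.31 for Slc11a2, 3.41 ± 0.37 for Fth1, and 1.45 ± 0.20 for Ftl1. The adjusted p of edgeR's test was 0.0173 for Slc40a1 and Slc11a2, 0.0305 for Fth1, 0.0479 for Ftl1, and 0.0690 for Cybrd1. Tfrc and Trf did not pass, with log2 fold changes of -0.74 ± 0.27 and -0.82 ± 0.31, nor did Slc11a1 (1.597 ± 0.69). Hamp and Hamp2 were too low to be tested. With no filter on low counts Cybrd1 was not called (adjusted p = 0.461, edgeR) and the other 4 were, where 7.08% of all genes were called.

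**Figure D1:**
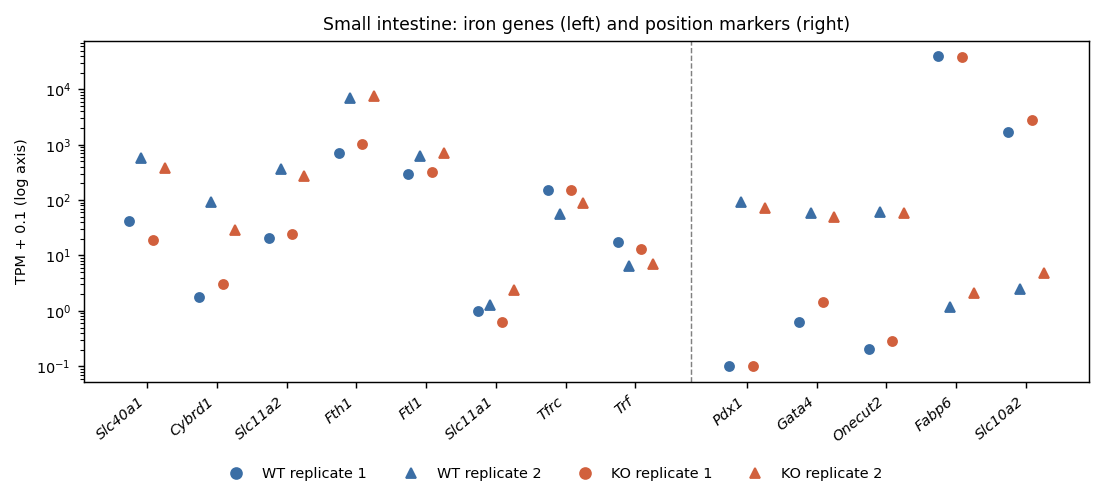
Levels in the 4 small intestine libraries (TPM + 0.1 on a log axis), with circles for replicate 1 and triangles for replicate 2. Slc40a1, Cybrd1, Slc11a2, Fth1, and Ftl1 and the duodenal markers Pdx1, Gata4, and Onecut2 are higher in replicate 2, and the ileal markers Fabp6 and Slc10a2 are higher in replicate 1.

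Markers of position along the intestine moved with these members. Pdx1, a transcription factor of the duodenum, stood at 0 TPM in both replicate 1 libraries and at 94.3 and 70.5 TPM in WT and KO replicate 2. Fabp6, the ileal bile acid binding protein, stood at 39675 and 37793 TPM in WT and KO replicate 1 and at 1.08 and 2.01 TPM in replicate 2. The 9 proximal markers summed to 243, 25325, 1105, and 33031 TPM and the 10 distal markers to 48822, 1803, 48839, and 1717 TPM in WT replicates 1 and 2 and KO replicates 1 and 2, and Fabp1 and Mep1b were the most abundant of these lists in replicate 2. Other cell types also differed between the replicate numbers. Of 7 adipocyte genes tested 6 were called, 5 of them lower in replicate 2 (median log2 fold change -5.55), although the summed level was 188, 203, 164, and 220 TPM in the order above, with Cfd most abundant in replicate 1 and Cidec, which the intestine also expresses, in replicate 2. Of 10 enterocyte genes 4 were called, all higher in replicate 2 (median 1.04), with summed levels of 21083, 37186, 34362, and 39253 TPM and Fabp2 most abundant in each library. Their part in the values of the members was not tested. The replicate number and the intestinal segment cannot be told apart in these libraries.

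Of the 70 further iron genes listed by pathway, 64 could be tested for replicate 2 against replicate 1, and 10 were called, 7 higher and 3 lower, where 7.64% of all genes were called and 4.52% as higher, with a median log2 fold change of 0.15 against -0.03 over all genes. Slc46a1, the intestinal folate and heme carrier, had the largest change of them, with 3.90 and 330 TPM in WT and 3.37 and 484 TPM in KO (log2 fold change 7.13 ± 0.35, adjusted p = 0.0102 by edgeR's quasi-likelihood test). Ncoa4, the receptor that delivers ferritin to the lysosome, stood at 19.6 and 286 TPM in WT and at 17.99 and 155 TPM in KO. In the opposite direction, Slc25a37 (mitoferrin-1, a mitochondrial iron importer) stood at 198 and 20.1 TPM in WT and at 352 and 17.4 TPM in KO. The remaining called genes were Slc39a14, Flvcr1, Ireb2, Furin, and Hmox2, which were higher in replicate 2, and Cubn and Flvcr2, which were lower. Cubn is also on the list of distal markers. Heph, the intestinal ferroxidase that works beside ferroportin, did not share this split, with 166 to 214 TPM over the 4 libraries.

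Against the mean of the other 4 organs, in a fit of all 20 libraries, 8 of 10 members were called for the small intestine (a change of more than 2-fold at an adjusted p below 0.05, edgeR's quasi-likelihood test), where 38.1% of 23159 genes were called. Slc40a1, Cybrd1, Slc11a2, and Fth1 were higher and Slc11a1, Hamp, Hamp2, and Trf were lower. Hamp and Hamp2 had at most 21 and 3 reads in a small intestine library, and neither was called against the kidney alone (edgeR). The log2 fold changes were 2.79 ± 0.53 for Slc40a1, 6.23 ± 0.71 for Cybrd1, 3.64 ± 0.52 for Slc11a2, and 2.05 ± 0.44 for Fth1, with adjusted p-values of edgeR's test between 7.8e-06 and 0.0012. Cybrd1 was at 0 counts in WT replicate 2 and KO replicate 2 of the liver, so its fold is approximate. With the replicate 1 libraries of each organ alone, which leaves out the duodenal libraries and the replicate 2 libraries of the other organs together, 3 of 10 members were called, where 33.7% of all genes were, and the log2 fold change was -0.47 for Slc40a1, -0.45 for Fth1, and 0.31 for Slc11a2, none past the threshold, whereas Cybrd1 remained called at 2.29. The ranges of the small intestine and of the organ next in mean level overlapped for Slc40a1, Cybrd1, Slc11a2, and Fth1.

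**Figure D2:**
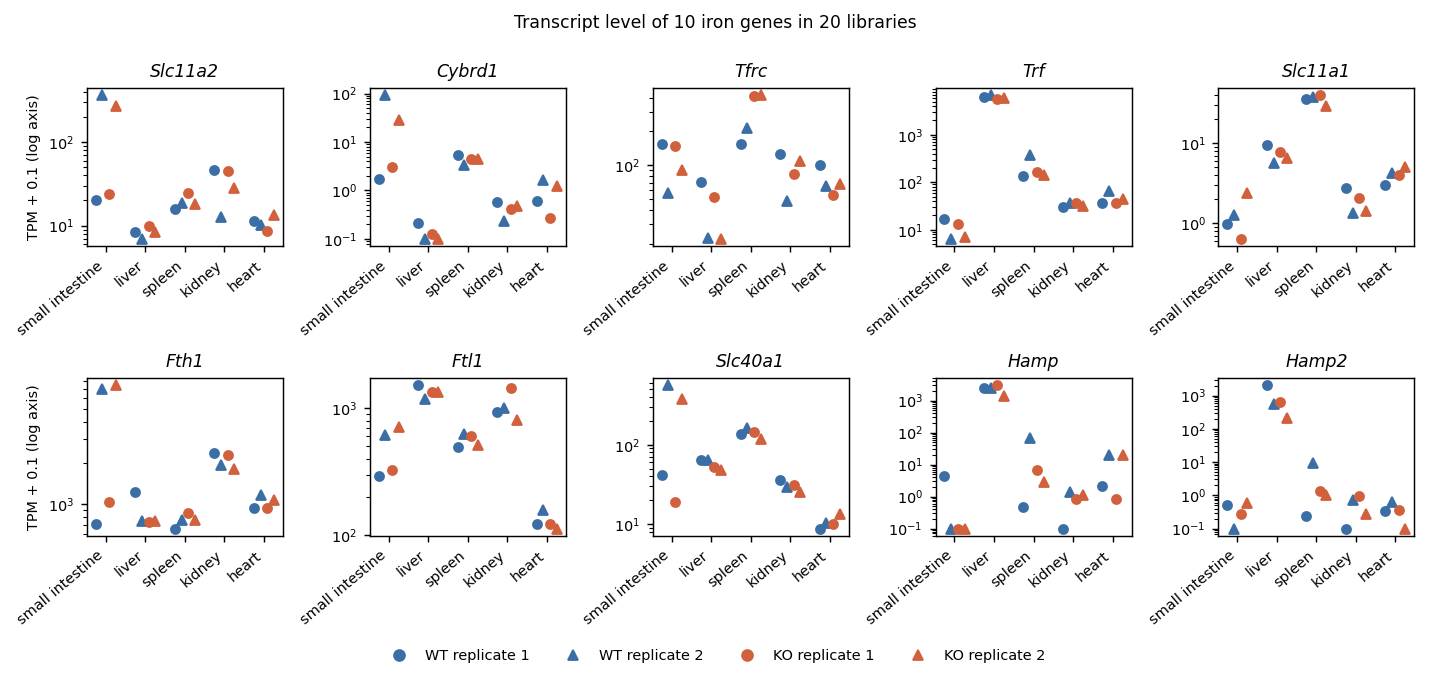
Level of the 10 members in each of 20 libraries (TPM + 0.1 on a log axis), by organ, with blue for WT, orange for KO, circles for replicate 1, and triangles for replicate 2. Trf, Hamp, and Hamp2 are highest in the 4 liver libraries, Slc11a1 in the 4 spleen libraries, and the small intestine splits by replicate.

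Iron carried in the blood and its receptor had separate organs of highest level. Trf, transferrin itself, was a liver transcript, at 6247 and 6791 TPM in WT and 5637 and 5940 TPM in KO. In the spleen it stood at 133 and 379 TPM in WT and 164 and 144 TPM in KO, and in the heart, kidney, and small intestine the means were 45.6 ± 13.9, 33.7 ± 3.6, and 10.8 ± 5.2 TPM (SD, n = 4). The liver lay above every other library, with a log2 fold change of 8.02 ± 0.28 against the other 4 organs (adjusted p = 4.1e-11, edgeR's quasi-likelihood test). For the liver 6 of 10 members were called, where 32.6% of all genes were, and the median log2 fold change of all genes was -0.26. The spleen library high in Trf was the one with hepatocyte transcripts, and the other 3 spleen libraries lay between 133 and 164 TPM, above the range of the heart.

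Tfrc, the receptor through which dividing cells and red cell precursors take up transferrin, was highest in the spleen, at 154 and 215 TPM in WT and 412 and 421 TPM in KO. In the other organs it ranged from 56.0 to 154 TPM in the small intestine, from 48.0 to 126 TPM in the kidney, from 53.7 to 100.02 TPM in the heart, and from 21.9 to 70.1 TPM in the liver. Neighbouring organs in the order of mean level overlapped throughout. The spleen was called against the other 4 organs with a log2 fold change of 1.23 ± 0.26 (adjusted p = 0.0011, edgeR's quasi-likelihood test), and 4 of 10 members were called there, where 40.7% of all genes were. Without spleen WT replicate 2 the log2 fold change was 1.08 ± 0.31 (adjusted p = 0.0106, edgeR). In WT libraries alone the value was 0.55 ± 0.43 and did not pass (adjusted p = 0.37, edgeR).

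Slc11a1, the metal transporter of the phagosome that macrophages use, was the member with the clearest spleen pattern, at 36.2 and 37.7 TPM in WT and 40.1 and 29.5 TPM in KO. The liver followed with 7.31 ± 1.63 TPM, the heart with 3.99 ± 0.82, the kidney with 1.79 ± 0.66, and the small intestine with 1.22 ± 0.77 TPM (SD, n = 4). Ranges did not overlap between neighbours down to the kidney, and those of the kidney and the small intestine did. Against the other 4 organs the spleen was higher by a log2 fold change of 2.97 ± 0.25 (adjusted p = 2.4e-07, edgeR's quasi-likelihood test), and by 2.93 ± 0.29 without spleen WT replicate 2. Cybrd1 was also called as higher in the spleen, at 3.19 to 5.24 TPM, with 0.137 to 1.51 TPM in the heart and kidney and at most 0.117 TPM in the liver, while the small intestine ranged from 1.66 to 92.6 TPM and overlapped with the spleen. Since Cybrd1 was at 0 counts in WT replicate 2 and KO replicate 2 of the liver, its fold is approximate. The log2 fold change of Cybrd1 was 1.98 ± 0.75 (adjusted p = 0.0407, edgeR) with all libraries and 2.11 ± 0.84 (adjusted p = 0.0586, edgeR) without spleen WT replicate 2, so the call was lost at a value of similar size. Fth1 was the member called as lower in the spleen, also without that library, where Hamp2 was called as lower as well. With WT libraries alone Slc11a1 was the 1 member called for the spleen, and the calls of Cybrd1 and Fth1 were lost.

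Ferritin transcripts were abundant in every organ, but the balance of the subunits differed. Fth1, the heavy subunit that oxidizes iron, stood at 2373 and 1939 TPM in WT kidney and 2298 and 1808 TPM in KO kidney, above the heart (931 to 1167 TPM). The liver (734 to 1217 TPM) overlapped with the heart and with the spleen (661 to 855 TPM). Ftl1, the light subunit that helps to form the mineral core, was highest in the liver at 1525 and 1176 TPM in WT and 1345 and 1337 TPM in KO, overlapping with the kidney (801 to 1435 TPM), and lowest in the heart (113 to 157 TPM). In the spleen it ranged from 497 to 621 TPM. Against the other 4 organs the liver was higher in Ftl1 by a log2 fold change of 2.42 ± 0.25 (adjusted p = 1.8e-06, edgeR's quasi-likelihood test).

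The log2 ratio of Fth1 to Ftl1 in TPM averaged 2.997 ± 0.16 in the heart, 2.47 ± 1.14 in the small intestine, 1.04 ± 0.29 in the kidney, 0.45 ± 0.12 in the spleen, and -0.67 ± 0.25 in the liver (SD, n = 4). In linear terms the ratio was 8.02 in the heart and 0.635 in the liver. Within the small intestine the ratio was 2.45 and 3.20 in the replicate 1 libraries and 11.2 and 10.6 in the replicate 2 libraries. Of 10 pairs of organs, 8 differed by a two-sided exact permutation test with p = 0.0286, the smallest value that 4 against 4 libraries allow (adjusted p = 0.0357 over 10 pairs). The small intestine against the kidney gave an exact p of 0.0571 (adjusted 0.0635) and against the heart an exact p of 0.429, with differences of 1.43 and -0.53. The widest difference, heart minus liver, was 3.67, and 3.41 in WT libraries alone. The ratio needs no scaling between libraries. Its absolute value depends on the merged exon length of each gene, 3469 bases for Fth1 and 1340 for Ftl1, and differences between organs do not. Of the Ftl1 exon bases 34.6% are shared with Gm10252 on the other strand and with Gm22133, and the processed copy Ftl1-ps1 held 3288 reads against 228195 for Ftl1 over all libraries, so the Ftl1 counts are uncertain to that extent.

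**Figure D3:**
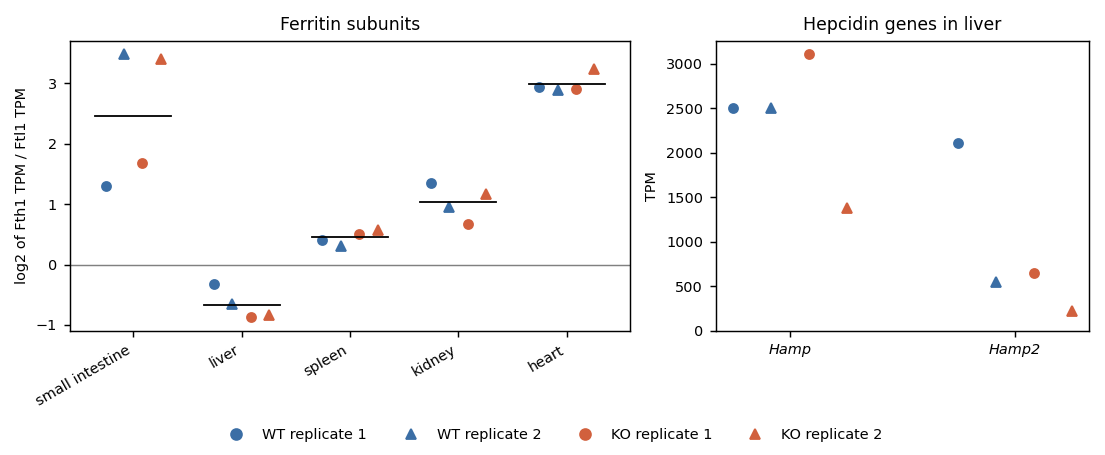
Left, log2 ratio of Fth1 to Ftl1 TPM in each library by organ, with lines at the means, from -0.67 in the liver to 2.997 in the heart. Right, TPM of Hamp and Hamp2 in the 4 liver libraries, where Hamp2 ranges from 217 to 2111 TPM.

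In TPM the exporter Slc40a1 was ordered, outside the small intestine, as spleen, liver, kidney, and heart, with no overlap between neighbours. In the fit of all 20 libraries, under edgeR's own scaling of the libraries, no neighbouring pair in this order was called. Liver against spleen had a log2 fold change of -0.065 ± 0.76, and liver against kidney 1.73 ± 0.79 (adjusted p = 0.104, edgeR). Spleen and liver were each called as higher than the heart. It stood at 136 and 161 TPM in WT spleen and 144 and 118 TPM in KO spleen, at 64.3 and 64.1 TPM in WT liver and 52.1 and 47.9 TPM in KO liver, and at means of 30.4 ± 4.4 TPM in the kidney and 10.6 ± 2.0 TPM in the heart (SD, n = 4). The heart was called as lower than the mean of the other 4 organs in Slc40a1, Ftl1, Trf, and Hamp2, which makes 4 of 10 members. Of all genes 37.8% were called and 16.2% as lower. Heart Trf lay below the liver and spleen in mean level but, at 45.6 TPM, above the kidney (33.7 TPM) and the small intestine (10.8 TPM). Heart Hamp2 had a mean of 0.257 TPM, beside 0.273 TPM in the small intestine. The calls of Trf and Hamp2 were lost with WT libraries alone, and that of Hamp2 without the replicate 2 libraries. For the kidney 2 members were called, Slc11a1 and Trf, both lower than the mean of the other 4 organs, where 28.8% of all genes were called and 9.76% as lower. Both had a higher mean TPM in the kidney than in the small intestine. DESeq2, run with no filter on low counts, called 6 members in the kidney, adding Cybrd1, Slc40a1, Hamp, and Hamp2. It called 7239 of 36620 genes there (19.8%), where edgeR called 6666 of 23159, so the 2 shares have unlike bases.

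Hepcidin transcripts were highest in the liver, and the duplicate gene had the wider range. Hamp stood at 2507 and 2500 TPM in WT liver and at 3116 and 1384 TPM in KO liver. Hamp2 stood at 2111 and 546 TPM in WT liver and at 642 and 217 TPM in KO liver. For both genes the genotypes overlapped, and the ratio of Hamp2 to Hamp was 0.842 in WT replicate 1 and 0.157 to 0.218 in the other 3 liver libraries. Both genes were called as higher in the liver than in the other 4 organs (edgeR), and no fold is given because libraries of other organs were at 0 counts. Of the Hamp2 exon bases 15.3% overlap Gm44662 on the other strand, and of those of Slc11a2 6.33% overlap Gm5475 on the other strand.

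The start regions of these neighbouring genes are nearly identical, with 227 of 253 aligned columns identical (89.7%) over the 250 bases before each start site. They are shown because the paired genes differ in 1 of 2 known regulatory motifs (RefSeq, GRCm38.p6, the 150 bases before the start site, minus strand, motifs in capitals). In the annotation used for counting, Hamp2 extends to position 30924681, so its window lies within the span of the counted gene. GGCGCC, the core of the BMP-responsive element, was present 109 bases before the start in Hamp and absent from this window of Hamp2. TTCTTGGAA, the STAT site, was present in both, 97 and 94 bases before the start. On either strand GGCGCC was in 9.59% and TTCTTGGAA in 0.365% of 32851 promoters, over the 250 bases before the start site, a longer window than the one shown. These are matches of letters and say nothing of a factor's binding.
Hamp, chr7:30944030-30944179: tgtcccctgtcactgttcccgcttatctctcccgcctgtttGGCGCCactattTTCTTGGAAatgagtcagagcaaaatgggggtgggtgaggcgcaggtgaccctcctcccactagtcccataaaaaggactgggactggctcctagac
Hamp2, chr7:30924182-30924331: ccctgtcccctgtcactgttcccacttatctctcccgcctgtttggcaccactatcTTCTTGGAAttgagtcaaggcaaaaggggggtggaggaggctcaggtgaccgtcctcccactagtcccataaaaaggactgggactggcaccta

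Outside the liver, Hamp was read in the spleen at 0.373 and 66.0 TPM in WT and at 6.43 and 2.75 TPM in KO. The high library was again WT replicate 2, and there Hamp stood at 14.7 TPM for every 1000 TPM of Alb, within the 8.12 to 19.4 of the liver libraries. The value was 12.9 in KO replicate 2 and lay above that range in WT replicate 1 (59.5, from 2 Hamp reads and Alb at 6.26 TPM) and KO replicate 1 (44.3). Trf in spleen WT replicate 2 stood at 84.2 TPM for every 1000 TPM of Alb, above the 30.9 to 48.3 of the liver libraries. In the remaining spleen libraries Trf lay higher still on this scale, at 676 to 21174. The heart was different. Hamp stood there at 2.01 and 20.2 TPM in WT and at 0.736 and 20.2 TPM in KO, from 6, 107, 2, and 117 reads, so that the replicate 2 libraries of both genotypes lay above the replicate 1 libraries. In these libraries Hamp reached 2612 and 3652 TPM for every 1000 TPM of Alb. Alb stood at 3.47, 7.74, 0.774, and 5.52 TPM and the 16 hepatocyte genes summed to 21.4, 62.6, 15.4, and 60.6 TPM in WT replicates 1 and 2 and KO replicates 1 and 2. Myl7, an atrial myosin light chain, stood at 722, 1965, 14.1, and 581 TPM in the same order. These replicate 2 libraries also had more counted reads, 36090637 and 41763236 against 17959542 and 15897446, and carry a further tag in their column names that is not explained. The part of the dissected heart region or of these library differences in the Hamp level was not tested.

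Against this background of organ differences, the genotype comparison asked whether loss of Nsun6 changed the members in any organ. No member was called in any of the 5 organs (a change of more than 2-fold at an adjusted p below 0.1, edgeR's quasi-likelihood test, fitted in each organ alone). The number tested was 9 for heart, liver, and spleen and 8 for kidney and small intestine, and the share of all genes called was 0% for heart, kidney, and small intestine, 0.0509% for liver, and 0.223% for spleen. At an unadjusted p under 0.05 there was 1 member, Tfrc in the spleen, where 5.14% of all genes in the spleen passed, and, in these fits with no block, none in the small intestine (2.39% of genes), liver (4.7%), kidney (0.638%), or heart (0.703%). DESeq2 also called no member in the small intestine, liver, kidney, or heart.

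**Figure D4:**
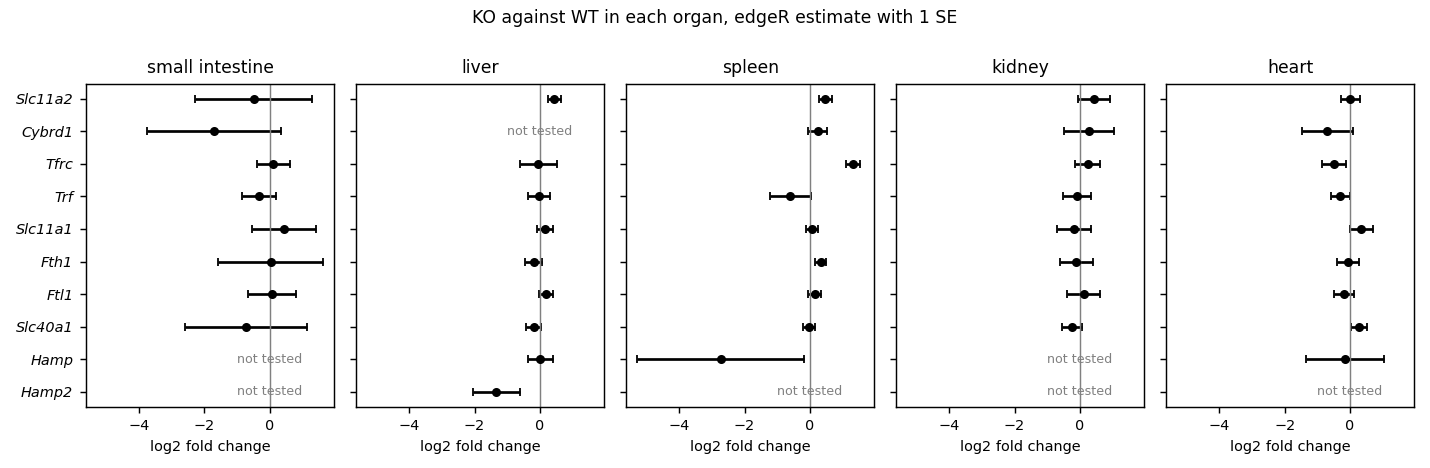
Log2 fold change of KO against WT for each member in each organ (edgeR estimate, bars of 1 SE, positive values higher in KO). Tfrc in the spleen is the estimate farthest from 0 in units of its SE, and the widest bar is that of Hamp in the spleen, followed by those of Cybrd1, Slc40a1, Slc11a2, and Fth1 in the small intestine.

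In the spleen, Tfrc was higher in both KO libraries than in both WT libraries. Its log2 fold change was 1.32 ± 0.21 with an adjusted p of 0.116 (edgeR's quasi-likelihood test), so it missed the threshold. DESeq2, run with no filter on low counts (29979 genes against 18834 for edgeR), called it (1.31 ± 0.23, adjusted p = 2.96e-06). It was also called by edgeR without WT replicate 2, the library with hepatocyte transcripts (1.63 ± 0.27, adjusted p = 0.0163), and without WT replicate 1 (1.07 ± 0.26, adjusted p = 0.0782), fits in which 1 WT library remains and is assumed to vary like the KO libraries. These fits called 0.697%, 1.35%, and 1.86% of all genes. Tfrc was also called with no filter on low counts (1.04% of genes called) and with a replicate block (0.228%). It was not called without KO replicate 1 (1.32 ± 0.26, adjusted p = 0.306), without KO replicate 2 (1.297 ± 0.26, adjusted p = 0.504), with RLE size factors (adjusted p = 0.112), or in a fit of all 20 libraries (1.29 ± 0.51, adjusted p = 1.0), each by edgeR. Fth1 was the other member whose groups did not overlap, at 661 and 766 TPM in WT and 855 and 769 TPM in KO, with a log2 fold change of 0.34 ± 0.17, and 0.49 ± 0.26 without WT replicate 2. Groups did not overlap in TPM for 39.1% of all genes tested in the spleen, and 9.36% had both KO libraries above both WT libraries.

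The remaining spleen members did not pass. The log2 fold change was 0.48 ± 0.21 for Slc11a2, 0.24 ± 0.29 for Cybrd1, 0.14 ± 0.19 for Ftl1, 0.06 ± 0.19 for Slc11a1, and -0.03 ± 0.18 for Slc40a1. For Trf it was -0.60 ± 0.63 and for Hamp -2.73 ± 2.55, and without WT replicate 2 both values turned positive, to 0.41 and 3.72. Without that library the value was 0.65 for Slc11a2, -0.04 for Cybrd1, 0.36 for Ftl1, 0.14 for Slc11a1, and 0.14 for Slc40a1, none called. Hamp2 was too low to be tested in the spleen.

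Erythroid precursor genes moved with Tfrc in these libraries. The list of 20, of which 19 were in the file, summed to 61773 and 82266 TPM in WT and to 125325 and 145974 TPM in KO, with Hbb-bs highest in each library, at 26800, 35643, 52522, and 79978 TPM. Of the 19 tested, 19 had a positive estimate, and those called as higher included Epb42, Alas2, Rhd, Slc4a1, and Trim10, where 0.218% of all genes were called as higher, and the list was drawn up with earlier results of these spleens known. The 10 red pulp macrophage genes summed to 1032 and 1394 TPM in WT and 1216 and 815 TPM in KO, with 0 of 10 called. The 7 adipocyte genes tested all had a positive estimate (median log2 fold change 1.58) and 1 was called, Fabp4, and the list of 8 summed to 90.7 and 36.5 TPM in WT and 185 and 161 TPM in KO, with Cfd most abundant in each library. The 10 neutrophil genes all had a negative estimate (median -0.57), with 0 called and sums of 1714 and 3431 TPM in WT and 955 and 2330 TPM in KO, and S100a9 was the most abundant in each. Without WT replicate 2 the erythroid list had 19 of 19 positive estimates and 16 called, the adipocyte list 7 of 7 and 1 called, the red pulp macrophage list 8 of 10 and 0 called, and the neutrophil list 6 of 10 and 0 called, where 1.35% of all genes were called. How far the numbers of erythroid or other cells contribute to the Tfrc value was not tested.

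Among the 70 further iron genes, 63 were tested in the spleen, and 1 was called in the fit of all spleen libraries, where 0.223% of all genes were. At an unadjusted p under 0.05 there were 8 of 63, 7 higher and 1 lower (edgeR), where 5.14% of all genes passed. Abcb10, a mitochondrial transporter known from red cell precursors, stood at 35.6 and 42.3 TPM in WT and at 86.3 and 82.9 TPM in KO, with both KO libraries above both WT libraries (log2 fold change 1.27 ± 0.17, adjusted p = 0.0839, edgeR's quasi-likelihood test). The call was lost without KO replicate 1 (adjusted p = 0.125, edgeR) and without KO replicate 2 (adjusted p = 0.184, edgeR), and in a fit of all 20 libraries, where the adjusted p was 1.0, with log2 fold changes from 1.23 to 1.29. Without WT replicate 2 it was called at 1.44 ± 0.28 (adjusted p = 0.0305, edgeR). Slc25a37 stood at 261 and 254 TPM in WT and at 499.9 and 400.5 TPM in KO (0.96 ± 0.16, adjusted p = 0.132, edgeR) and was not called, with 0.98 ± 0.27 without WT replicate 2. The median log2 fold change of the 63 genes was -0.03 against 0.01 over all genes. Without WT replicate 2 this median was 0.013, with 34 of 63 estimates positive. The number of listed iron genes called was higher in that fit, which leaves 1 WT library.

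**Figure D5:**
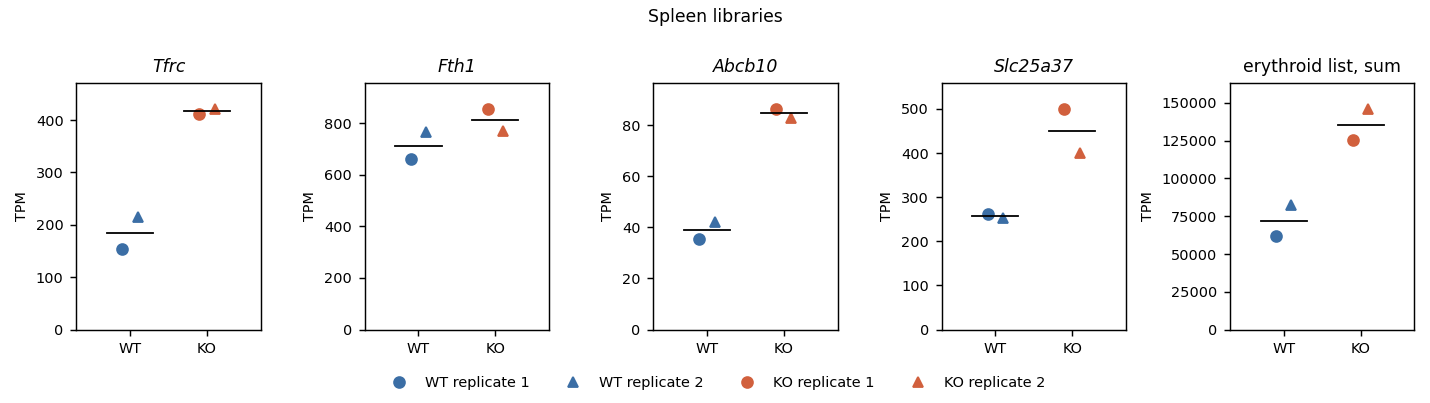
TPM in the 4 spleen libraries, with lines at the group means, for Tfrc, Fth1, Abcb10, and Slc25a37 and for the sum of the erythroid precursor list. In each panel both KO libraries lie above both WT libraries, and Fth1 has the smallest gap.

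In the other organs no estimate passed in the fits of each organ with no block. In the small intestine they ran from -1.70 ± 2.05 for Cybrd1 to 0.44 ± 0.97 for Slc11a1, with the segment difference inside each group. With the replicate number as a block, which takes up that difference, they ran from -0.99 ± 0.28 for Slc40a1 to 0.21 ± 0.34 for Fth1, and 0 of 8 members were called (for Slc40a1 an unadjusted p of 0.0233 and an adjusted p of 0.828, edgeR). Smooth muscle transcripts also stood higher in both KO libraries. All 8 smooth muscle genes had positive estimates at an unadjusted p under 0.05 (edgeR, median log2 fold change 2.27, 0 called), and they summed to 289 and 370 TPM in WT and to 2796 and 1194 TPM in KO, with Actg2 most abundant in replicate 1 and Acta2 in replicate 2. The 10 cardiomyocyte genes summed to 528 TPM in KO replicate 1 and to 33.2 to 46.5 TPM in the other 3 libraries. The part of muscle in the values of the members was not tested. In the liver they ran from -1.33 ± 0.73 for Hamp2 to 0.44 ± 0.19 for Slc11a2. The Hamp2 value was -0.38 without WT replicate 1, -0.75 without KO replicate 2, and -2.32 without KO replicate 1, and it was called with a replicate block (-1.34 ± 0.21, adjusted p = 0.0674, edgeR), where 0.127% of all genes were. In the liver Slc40a1, Trf, and Fth1 had both KO libraries below both WT libraries in TPM, as did 27.2% of all genes. In the kidney the lowest was -0.24 ± 0.31 for Slc40a1 and the highest 0.44 ± 0.48 for Slc11a2, a gene at 46.7 and 12.7 TPM in WT and 44.5 and 28.4 TPM in KO. Without WT replicate 1 of the kidney, Slc11a2 was called (1.13 ± 0.27, adjusted p = 0.0151, edgeR), where 16.1% of all genes were called against 1 remaining WT library, and without WT replicate 2 it was at -0.00032. In the heart they ran from -0.70 ± 0.79 for Cybrd1 to 0.35 ± 0.34 for Slc11a1. In a fit of 1 genotype difference over all organs, 0 of 10 members were called, where 0.00472% of all genes were, with estimates from -1.21 ± 0.62 for Hamp2 to 0.23 ± 0.24 for Tfrc. For a genotype difference that varies between organs 0 of 10 members were called, where 0% of 23159 genes were and 2.31% had an unadjusted p under 0.05, so the spleen value of Tfrc was not shown to differ from the other organs.

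Outside the spleen, the listed iron genes gave no calls for genotype in the fits of each organ with no block and all its libraries. Of the 70 genes 59 were tested for heart, 60 for kidney, 61 for liver, and 64 for small intestine. In each organ 0 were called and 0 had an unadjusted p under 0.05 (edgeR). Of all genes, 0% were called for heart, kidney, and small intestine and 0.0509% for liver. An unadjusted p under 0.05 (edgeR) was found for 0.703% of all genes in heart, 0.638% in kidney, 4.7% in liver, and 2.39% in small intestine. The smallest p-values belonged to Slc46a1 (0.49 ± 0.22) and Tmprss6 (0.52 ± 0.26) in the liver, to Dab2 (0.96 ± 0.40) and Steap2 (-0.77 ± 0.41) in the small intestine, to Hp (-1.66 ± 0.72) and Atoh8 (0.999 ± 0.47) in the kidney, and to Slc39a8 (-1.06 ± 0.45) and Cubn (-0.61 ± 0.35) in the heart, as log2 fold changes with SE.

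Other steps of iron handling, read from these listed genes, had their own organs of highest mean level. The heme and hemoglobin scavengers Hpx and Hp were highest in the liver, at 5052 ± 1684 and 2270 ± 593 TPM (SD, n = 4), and so was Cp, the plasma ferroxidase, at 325 ± 59 TPM. Hjv, the BMP co-receptor that drives hepcidin in the liver, was higher in the heart, at 240 ± 43 TPM, than in the liver, at 92.0 ± 40.2 TPM, and the ranges did not overlap. Lrp2, the endocytic receptor megalin, stood at 371 ± 65 TPM in the kidney and below 1 TPM in every other library. Aco1 and Iscu, of the iron regulatory protein and iron-sulfur cluster systems, were also highest in the kidney, at 150 ± 23 and 234 ± 20 TPM. Id1 and Pcbp1 were highest in the small intestine, at 315 ± 117 and 198 ± 20 TPM.

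Patterns most like each member were sought among 21830 genes by Pearson r of log2(TPM + 1) over the 20 libraries, which share organs, depth, and the segment split, so the values are descriptions. For Hamp the nearest were Ahsg (0.98), Itih4 (0.97), and Sds (0.97), for Hamp2 they were Mup-ps16 (0.996), Gm13775 (0.99), and Mup-ps13 (0.99), and for Trf they were Igf1 (0.99), Gm4951 (0.98), and Hp (0.98). Slc40a1 was nearest to Ces2g (0.93), Afp (0.91), and Vkorc1l1 (0.87), Cybrd1 to Slc4a7 (0.98), Slc23a2 (0.95), and Tnni1 (0.94), and Slc11a2 to G630018N14Rik, Rec8, and Ccdc114 (0.93 each). Slc11a1 was nearest to Cfp (0.98), Cd300a (0.97), and Rbm12b1 (0.97), and Tfrc to Slc1a5 (0.93), Rfwd3 (0.92), and Cep95 (0.91). Fth1 was nearest to Ahcyl1 (0.97), G630018N14Rik (0.94), and Adora2b (0.94), and Ftl1 to its own processed copy Ftl1-ps1 (0.98), Nipsnap1 (0.97), and Gclm (0.94).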

How the data were processed

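Libraries were grouped by the organ, genotype, and replicate number in the labels. The authors trimmed reads with cutadapt, mapped them to mm10 with HISAT2 2.1.0, and counted them with featureCounts 2.0.1 on Ensembl 102 exons (per the labels and the file header), and deposited raw counts per gene with the merged exon length in bases. The methods state strand-specific counting of proper pairs, whereas the command stored in the file header holds no strand or pair option, so whether overlapping antisense genes were separated is uncertain. Replicates were not pooled, and 0 columns of per-sample values were left unused.

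TPM was computed from counts and merged exon length, which understates genes with long alternative exons. Counts were tested with edgeR 4.0.16 in R 4.3.3 (TMM, filterByExpr, quasi-likelihood, robust, Benjamini-Hochberg over all genes tested), within each organ for genotype and on all 20 libraries for organs. The SE was obtained from the estimate and its F statistic (size of the log2 value over the root of F). The steps were tested on simulated counts. Exact permutation tests used scipy 1.17.1. Iron-responsive elements were read from GENCODE M21 transcripts, and hepcidin promoters from RefSeq, in which both genes matched.

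The members, gene lists, and thresholds were chosen with earlier results of these data known. Genes named are the 10 members (in the spleen each one tested, elsewhere the highest and lowest genotype change), the listed iron genes called for genotype or of the 2 smallest p in an organ, the 2 of highest TPM per list, and the 3 most alike in pattern. Called genes of the segment comparison, position and erythroid markers, Alb, and Myl7 were added after their values were seen. Of the listed genes, Cia2a, Smad8, and Ahsp had no row under these symbols. Alternatives were DESeq2 1.42.0, RLE size factors, no filter, 1 fit of all libraries, no fold threshold, WT libraries alone, a replicate block, and each library left out in turn. Leaving out spleen WT replicate 2 from organ fits was added after seeing the data. Whether organs shared animals is not stated in the sources used here. Single values of some genes on the marker lists are not reported here.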

Additional observations from a re-analysis of the deposited data

Results flagged for a closer look

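Of 50 groups of 4 libraries, 1 for each member and organ, 5 held a library far from the other 3 (a gap beyond Dixon's 95% critical value), where chance gives about 1 in 20. In the spleen 3 of these were WT replicate 2, with Hamp at 66.0 TPM, Hamp2 at 9.32 TPM, and Trf at 379 TPM, the library that also held 7994 TPM of hepatocyte transcripts. In the small intestine Hamp was listed at 4.15 TPM in WT replicate 1, from 21 reads, and at 0 in the other 3 libraries, and Alb was also highest in that library, at 65.3 TPM against 8.65 to 15.5 TPM. Hamp stood there at 63.6 TPM for every 1000 TPM of Alb, above the 8.12 to 19.4 of the liver libraries. In the liver Fth1 stood at 1217 TPM in WT replicate 1 and at 734 to 749 TPM in the other 3 libraries, and Hamp2 was highest in the same library.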

How the results depend on the processing

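The number of members called for genotype stayed at 0 in the small intestine and the heart under every alternative run. It became 1 in the liver with the replicate block (Hamp2, log2 fold change -1.34, adjusted p = 0.0674 by edgeR), and in the spleen 1 with DESeq2, 1 with no filter on low counts, and 1 with the replicate block, each time Tfrc (adjusted p = 0.0768 with the block). Leaving out each library in turn gave 0 to 3 members in the spleen and 0 to 1 in the kidney. The 3 were Tfrc, Hamp, and Trf without spleen WT replicate 1, where WT replicate 2, with hepatocyte transcripts, is the remaining WT library and is assumed to vary like the KO libraries.

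Signs turned when 1 library was left out for 8 of 8 members tested in the small intestine, 8 of 8 in the kidney, 6 of 9 in the heart, 6 of 9 in the spleen, and 4 of 9 in the liver. Among the values named in the text they turned for Slc11a1 (-1.28 to 1.21) and Cybrd1 (-4.50 to 3.48) in the small intestine, for Slc40a1 (-0.20 to 0.14), Slc11a1 (-0.19 to 0.26), Cybrd1 (-0.044 to 0.59), Ftl1 (-0.047 to 0.36), Trf (-1.19 to 0.41), and Hamp (-3.73 to 3.72) in the spleen, for Slc11a2 (-0.00032 to 1.13) and Slc40a1 (-0.44 to 0.0089) in the kidney, and for Cybrd1 (-2.22 to 0.035) in the heart, as log2 fold changes of KO against WT. Tfrc in the spleen ranged from 1.07 to 1.63.

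For organs, leaving out a replicate number, or spleen WT replicate 2 alone, gave 3 to 8 members for the small intestine, 3 to 6 for the kidney, and 6 to 8, 4 to 5, and 3 to 5 for the liver, spleen, and heart. Of all genes tested (21668 to 24727), these fits called 7325 to 8873 for the small intestine and 5332 to 6734 for the kidney. They called 6381 to 7487 for the liver, 8226 to 8975 for the spleen, and 7728 to 8613 for the heart. Slc40a1 then ranged from -0.47 to 3.70 and Fth1 from -0.45 to 2.94 in the small intestine against the other organs. The kidney count was 5 with no filter (20.5% of all genes called) and 6 with DESeq2. With WT libraries alone the count was 1 in the spleen (32.3% of all genes, Tfrc, Cybrd1, and Fth1 lost), 2 in the heart (29.3%, Trf and Hamp2 lost), 6 in the small intestine (29.1%, Hamp and Hamp2 lost), and 5 in the liver (24.1%, Cybrd1 lost), and with the replicate block it was 7 in the small intestine (37.5%, Hamp2 lost). A genotype difference that varies between organs called 1 member, Hamp, with no filter, where 2.66% of all genes were called.

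Replicate numbers were not taken as pairs, since the labels tie them to no shared animal, litter, or day and each organ has 2 of them, although in the small intestine the number goes with the segment. The correlation of the replicate difference between genotypes was 0.64 in the small intestine, 0.48 in the heart, 0.28 in the kidney, 0.07 in the liver, and -0.06 in the spleen. The replicate block changed no other member's call for genotype. Of 254 comparisons of a named log2 fold change with its value under an alternative, 225 kept direction and side of the threshold and 15 turned in sign, over 27 results. Of these comparisons, 19 had no fold threshold and reused the main fit, so their direction could not change. For results not called in the main fit, keeping the side only means that they stayed not called. Read depth limits Hamp and Hamp2 outside the liver, which were too low to be tested in several organs, and 2 libraries a group limit the other values.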
